A study of Mus musculus with 8 samples.

Results

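A set of 8 mouse miRNAs of blood cells, mmu-miR-451a, mmu-miR-144-3p, mmu-miR-144-5p, mmu-miR-486-5p, mmu-miR-223-3p, mmu-miR-142-3p, mmu-miR-142-5p and mmu-miR-150-5p (the prefix is left out below), was followed in newborn mouse skull bone and in a cultured bone cell line. They were chosen by name, as 4 miRNAs of red cells and 4 of white cells, and are 8 of the 1281 mature miRNAs in the files. All 8 were found, each as 1 entry. The series holds 8 small RNA libraries, and each miRNA has a value in all of them. Of these libraries, 5 came from MC3T3 E1 sc4, a cloned pre-osteoblast line of C57BL/6 mouse calvaria at passage 10 to 15, and each pools RNA of 3 cultures of 1 day. Day 0 was labelled undifferentiated, and at days 6, 10, 17 and 24 the cells had been kept in osteogenic medium with 50 µg/ml ascorbic acid and 4 mM β-glycerol phosphate; the medium held fetal bovine serum throughout. The other 3 came from calvaria, the parietal and frontal bones, of C57BL/6 female Prrx1-Cre+ mice aged 2 to 3 days, with no treatment other than 20 minutes in collagenase and trypsin before freezing. All 3 calvaria libraries carry the Cre, which Prrx1 regulatory sequence drives in skeletal mesenchyme, and the labels name no floxed allele. Nothing in the labels says that the 3 came from separate animals, so p-values measure only the spread between these samples, which may be technical.

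As background, a developing red cell makes miR-144 and miR-451a from 1 primary transcript that the erythroid factor GATA1 switches on. miR-451a is unusual in that its short hairpin is cut by Argonaute 2 and not by Dicer, and it stays in the circulating red cell. miR-486 lies in the gene of ankyrin 1, a protein of the red cell membrane, and is made in striated muscle as well as in red cells. Among white cells, miR-223 belongs to neutrophils and other myeloid cells, miR-142 to all blood lineages, and miR-150 to mature lymphocytes. Skull bone of a newborn holds vessels, early marrow and sutures beside osteoblasts.

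The mature sequences are shown because they identify which molecule each level belongs to, and because the seed (bases 2 to 8 from the 5′ end, in capitals) sets which transcripts a miRNA pairs with. Sequences of 6 of the 8 were matched in a table from RefSeq (GRCm38.p6); miR-486-5p and miR-150-5p are named only. The sequence of miR-101a-3p, a miRNA of many tissues, is set beside them for its likeness to miR-144-3p.
miR-451a: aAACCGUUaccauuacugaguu
miR-144-3p: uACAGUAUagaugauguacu
miR-144-5p: gGAUAUCAucauauacuguaagu
miR-223-3p: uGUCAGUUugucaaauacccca
miR-142-3p: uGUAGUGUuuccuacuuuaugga
miR-142-5p: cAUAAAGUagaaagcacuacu
miR-101a-3p: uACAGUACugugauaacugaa
The 6 blood miRNAs carried 6 different seeds. miR-144-3p and miR-101a-3p shared their first 7 bases, UACAGUA, and the last base of the seed differed, written U8C (counted from the 5′ end, with the base of miR-144-3p first).

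The hairpins show how the arms are placed, with the mature miRNAs in capitals. In Mir144 both arms are annotated, in Mir142 both arms are annotated, and in Mir451a only 1.
Mir144: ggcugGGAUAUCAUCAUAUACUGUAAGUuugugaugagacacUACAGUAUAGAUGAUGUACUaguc
Mir451a: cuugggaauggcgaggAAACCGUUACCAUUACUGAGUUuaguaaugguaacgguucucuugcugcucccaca
Mir142: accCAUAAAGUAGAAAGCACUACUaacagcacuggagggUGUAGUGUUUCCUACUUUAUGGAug
In Mir451a a run of 16 bases at positions 18 to 33 has its exact reverse complement at positions 40 to 55, with 6 bases between. The mature miR-451a, positions 17 to 38, runs 5 bases past the first run into those between. On mm10, Mir144 lies at chr11:78073005-78073070 and Mir451a at chr11:78073170-78073241, both on the plus strand, 99 bases apart and in no other gene than the antisense Mir451b. Mir142 lies at chr11:87756864-87756927 (plus) in an intron of the noncoding Mir142hg, and Mir223 at chrX:96242817-96242926 (plus) in an exon of the noncoding F630028O10Rik. Mir150 lies at chr7:45121757-45121821 (plus), outside other annotated genes. Mir486 lies at chr8:23142555-23142682 (plus) in an intron of Ank1, and Mir3107 lies antisense inside it at chr8:23142573-23142662.

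Library totals were 2742368 to 4031962 counts in MC3T3 and 1183011 to 2023036 in calvaria, so 1 count was worth 0.248 to 0.365 RPM (counts per 1000000 of the library's total miRNA count) in MC3T3 and 0.494 to 0.845 RPM in calvaria. The labelled tissue could be checked against listed markers. Summed RPM of 4 mesenchymal miRNAs, led by miR-143-3p, was 110434 to 118409 in calvaria and 111442 to 165855 in MC3T3, while that of the endothelial miR-126-3p and miR-126-5p was 9028 to 20323 in calvaria and 6.20 to 19.0 in MC3T3. The mesenchymal miRNAs differed in direction. miR-143-3p had 50332 to 64103 RPM in calvaria and 87473 to 117479 RPM in MC3T3, and miR-145a-5p was likewise lower in every calvaria library. miR-199a-3p was higher, with 49959 to 55986 RPM in calvaria and 19984 to 41864 RPM in MC3T3, and the ranges of miR-214-3p overlapped. Intervals and limits below cover counting error only, because these reads carry no molecular identifiers and PCR copies are not independent.

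Of the 8 blood miRNAs, 7 were near absent from MC3T3 and present in all 3 calvaria libraries. Together these 7, all but miR-486-5p, had 3 to 15 counts in an MC3T3 library (0.951 to 5.47 RPM) and 264 to 404 RPM in a calvaria library. Even in calvaria they were minor: all 8 made up 0.0312%, 0.0369% and 0.0464% of the counts of calvaria libraries 1, 2 and 3. miR-486-5p went the other way, with a higher mean in the cultured line. In whole tissue, fewer cells of a type and less RNA per cell cannot be told apart, so these levels do not count blood cells.

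**Figure D1:**
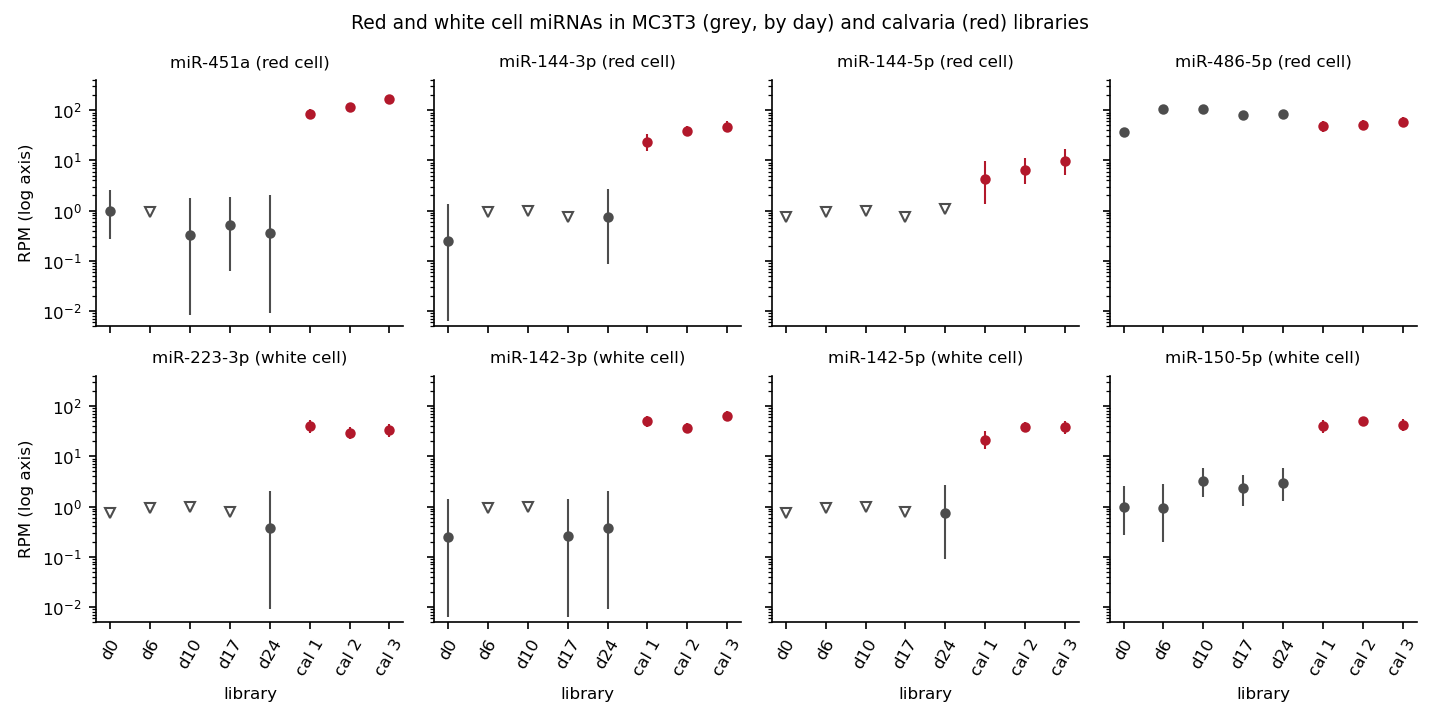
RPM of each blood miRNA (log axis) in the 5 MC3T3 libraries by day (grey) and the 3 calvaria libraries (red). Bars are exact 95% Poisson intervals, and open triangles mark libraries with 0 counts at the limit of 3 counts. In 7 panels there is a gap between the materials, and in the panel of miR-486-5p the groups overlap.

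miR-451a, the most abundant of the 8 in calvaria, had 85.4, 116 and 170 RPM in calvaria libraries 1, 2 and 3 (101, 235.5 and 229 counts). In MC3T3 it had 4, 0, 1, 2 and 1 counts at days 0, 6, 10, 17 and 24, or at most 0.992 RPM. Every calvaria library thus lay above every MC3T3 library, with means of 124 ± 43.1 (SD, n = 3) and 0.437 ± 0.361 RPM (SD, n = 5). Counts pooled over libraries gave a ratio of 264 (95% exact binomial interval 133 to 614). The log2 difference was 7.69 ± 0.53 (SE, adjusted p = 2.52e-07, edgeR quasi-likelihood test over the 471 mature miRNAs tested), and 8.33 without day 0. By limma on log2(RPM + 10) it was 3.63. Even so, miR-451a ranked only 203, 182 and 159 by level among the mature miRNAs of calvaria libraries 1, 2 and 3.

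miR-144-3p, the main arm of the neighbouring hairpin, had 23.7, 38.1 and 46.9 RPM in the calvaria libraries (28, 77 and 63 counts). MC3T3 held 1 count at day 0, 2 counts at day 24 and none at the other 3 days. Means were 36.2 ± 11.7 RPM (SD, n = 3) against 0.195 ± 0.317 RPM (SD, n = 5), with a pooled ratio of 209 (70.3 to 1023). The log2 difference was 7.12 ± 0.62 (SE, adjusted p = 2.14e-06, edgeR), and 8.09 without day 24. Its partner arm, miR-144-5p, was found in calvaria only, with 5, 13 and 13 counts (4.23, 6.43 and 9.68 RPM) against 0 in all 5 MC3T3 libraries. A count of 0 over the 5 libraries allows up to 0.177 RPM (3 counts in all), and against that limit miR-144-5p was at least 38.6-fold higher in calvaria at its observed level. The exact binomial interval, which also takes in the counting error of the 31 calvaria counts, starts at 29.5. It had 10 counts in only 2 libraries and so was not among the miRNAs tested. With the minimum lowered to 2 libraries, a setting chosen after seeing the data, it entered the test only through those 2 calvaria libraries, so its log2 difference of 7.06 ± 0.79 (SE, adjusted p = 0.000259, edgeR) is given as a description and no support.

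miR-486-5p, the remaining red cell miRNA, had 47.8, 51.9 and 59.6 RPM in calvaria libraries 1, 2 and 3. In MC3T3 it had 36.5, 105, 107, 81.1 and 84.6 RPM at days 0, 6, 10, 17 and 24. The groups overlapped: day 0 lay below all calvaria libraries and the other 4 days above them. The mean was 53.1 ± 5.98 RPM (SD, n = 3) in calvaria and 82.9 ± 28.5 RPM (SD, n = 5) in MC3T3, with a pooled ratio of 0.661 (0.575 to 0.760). edgeR called it lower in calvaria, by a log2 difference of -0.80 ± 0.27 (SE, adjusted p = 0.0236). That call was lost in 9 of 22 alternatives, among them DESeq2's size factors (adjusted p = 0.0580) and leaving out calvaria 1 (0.0989), calvaria 2 (0.0941), day 6 (0.0611) or day 10 (0.0525), while the difference stayed below 0 in all 22 (-1.23 to -0.49).

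The level of miR-486-5p carries a second uncertainty, its antisense copy. miR-3107-5p, from the other strand of the same locus, had nearly equal counts in every library, 56.5, 114 and 86 beside 56.5, 105 and 80 in calvaria. Pooled, the ratio of miR-486-5p to miR-3107-5p was 0.942 (0.790 to 1.13) in calvaria and 0.928 (0.862 to 1.001) in MC3T3. The sources used here do not give how the authors divided reads between these copies. Summing both, an alternative chosen after seeing the data, left a log2 difference of -0.81 (adjusted p = 0.0174, edgeR). The opposite arm, miR-486-3p, had 82 counts over MC3T3 and 5.5 over calvaria and was likewise called lower in calvaria, with a log2 difference of -2.24 ± 0.85 (SE, adjusted p = 0.0383, edgeR). That call was lost in 7 of 20 alternatives, leaving out calvaria 1 (0.109), calvaria 2 (0.195), day 6 (0.0695) or day 24 (0.0502) among them, and without calvaria 3 the difference was -3.92 (adjusted p = 0.0171). The call of miR-3107-5p was lost in 6 of 21, leaving out calvaria 1 (0.0878) or calvaria 2 (0.0692) among them. Of the 4 red cell miRNAs, miR-486-5p was thus the only one not higher in calvaria, and its level went against its label as a blood miRNA of bone.

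Markers of striated muscle, the other tissue known for miR-486, stood beside it. miR-206-3p, of skeletal muscle, had 556.3 RPM at day 0 and 104 to 144 RPM at the later days of MC3T3, against 45.0 to 203 RPM in calvaria, and did not pass (log2 difference -1.33 ± 0.77, SE, adjusted p = 0.149, edgeR). miR-1a-3p and miR-133a-3p, of skeletal and heart muscle, were higher in calvaria by log2 differences of 1.99 ± 0.39 (SE, adjusted p = 0.00113) and 2.99 ± 0.38 (SE, adjusted p = 3.9e-05). miR-499-5p, from a myosin gene, had 2.70 ± 0.606 RPM (SD, n = 3) in calvaria and 9.74 ± 7.95 RPM (SD, n = 5) in MC3T3, and did not pass (log2 difference -2.02 ± 0.85, SE, adjusted p = 0.0573, edgeR; 0.00744 without day 0 and 0.0422 without day 6). miR-208a-3p and miR-208b-3p, which lie in myosin genes, had 0 counts in every library. Over all 7 listed muscle miRNAs the summed level was 283 to 642 RPM in calvaria and 213 to 574 RPM in MC3T3. Their part in the level of miR-486-5p was not tested.

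Among white cell miRNAs, miR-142-3p was the most abundant in calvaria, with 49.9, 37.1 and 64.02 RPM (59, 75 and 86 counts). MC3T3 held 1 count at each of days 0, 17 and 24 and none at days 6 and 10. The means were 50.3 ± 13.5 (SD, n = 3) and 0.173 ± 0.165 RPM (SD, n = 5), the pooled ratio 274 (92.4 to 1337) and the log2 difference 7.61 ± 0.49 (SE, adjusted p = 1.67e-07, edgeR). Its partner miR-142-5p had 21.6, 39.1 and 38.0 RPM in calvaria and counts at 1 MC3T3 day only, 2 at day 24. Here the means were 32.9 ± 9.80 (SD, n = 3) and 0.146 ± 0.326 RPM (SD, n = 5), the pooled ratio 290 (79.2 to 2424) and the log2 difference 7.44 ± 0.65 (SE, adjusted p = 2.23e-06, edgeR). Without day 24, MC3T3 held 0 counts of miR-142-5p, and the fitted difference, which then depends on the prior count, was 9.33, against 7.88 for miR-142-3p.

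miR-223-3p, the myeloid miRNA, had 39.7, 29.2 and 32.8 RPM in calvaria (47, 59 and 44 counts). A single count at day 24 was all that the 5 MC3T3 libraries held. The means were 33.9 ± 5.37 (SD, n = 3) and 0.0729 ± 0.163 RPM (SD, n = 5). From 1 count the pooled ratio of 560 is poorly fixed (98.9 to 22252), and the log2 difference was 8.13 ± 0.54 (SE, adjusted p = 2.06e-07, edgeR). Without day 24 MC3T3 held 0 counts and the fitted difference, then set by the prior count, was 9.36.

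miR-150-5p, the miRNA of mature lymphocytes, had 39.7, 50.4 and 42.4 RPM in calvaria (47, 102 and 57 counts). Unlike the 6 others that lay above MC3T3, it had counts at all 5 days of the cultured line: 4, 3, 10, 9 and 8, or 0.992, 0.951, 3.22, 2.28 and 2.92 RPM. The means were 44.2 ± 5.56 (SD, n = 3) and 2.07 ± 1.06 RPM (SD, n = 5). Its pooled ratio was 22.6 (15.7 to 33.5), an interval below those of the other 5 tested miRNAs with higher levels in calvaria, and its log2 difference was 4.21 ± 0.38 (SE, adjusted p = 2.82e-06, edgeR).

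By mean level in calvaria the order was miR-451a, miR-486-5p, miR-142-3p, miR-150-5p, miR-144-3p, miR-223-3p, miR-142-5p and miR-144-5p. The ranges over the 3 libraries set miR-451a apart from the next below it and miR-144-5p apart from the next above it. The 6 between overlapped their neighbours in that order. Summed with its antisense copy miR-3107-5p, miR-486-5p was at 95.5 to 124 RPM in calvaria, a range that overlaps that of miR-451a, so miR-451a was set apart only where the copies are taken as separate. These are read levels, and small RNA library kits join adapters to some sequences more readily than to others, so the order of reads need not be that of molecules.

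Of the 8, 7 were tested: 6 were higher in calvaria and 1, miR-486-5p, was lower. The background was high in each direction, since 35.5% of all 471 mature miRNAs tested were called higher in calvaria and 28.7% lower. The 6 that were higher reached the count minimum of 10 in 3 libraries only with the help of calvaria libraries. Of 104 miRNAs for which that held, 103 were called higher (99%), so the count of 6 is no support in itself. Without overlap of RPM between the groups, 39.5% of tested miRNAs lay above MC3T3 in every calvaria library, as these 6 did, and 21.9% lay below. The median log2 difference of all 471 was 0.06. Under upper quartile scaling the split of all calls turned from 167 higher and 135 lower to 142 higher and 192 lower, while the direction of all 7 held. The sizes depended on the method: limma on log2(RPM + 10) gave 3.63 for miR-451a, 2.54 for miR-142-3p and 2.17 for miR-150-5p. It gave 2.15 for miR-144-3p, 2.12 for miR-223-3p and 2.05 for miR-142-5p. These were the lowest of the alternatives for each of the 6. In 21 or 22 alternatives each, the 6 kept an adjusted p under 0.05. miR-144-5p, subject to the same limit, did so in the 4 that tested it. Since the 6 pass the minimum only with calvaria libraries, their adjusted p-values, here and above, are likewise descriptions and no support.

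**Figure D2:**
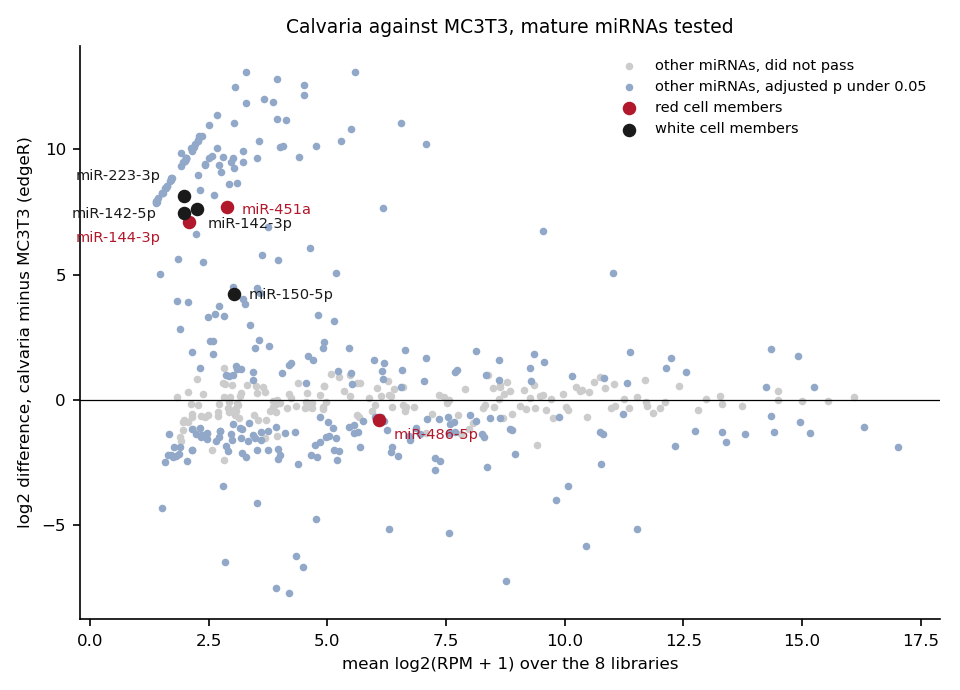
Fitted log2 difference, calvaria minus MC3T3, against mean log2(RPM + 1) over the 8 libraries for the 471 mature miRNAs tested. Blue points passed an adjusted p of 0.05 and grey points did not; red cell miRNAs are red and white cell miRNAs black. The 6 higher blood miRNAs lie among many others of low mean level and large difference, and miR-486-5p lies below 0.

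Over the days of MC3T3 culture the blood miRNAs gave little to test. Only miR-486-5p reached 10 counts in 2 MC3T3 libraries, and its fitted change over 24 days was a log2 difference of 0.41 ± 0.50 (SE, adjusted p = 0.637, edgeR over 391 miRNAs, of which 1.02% rose and 1.28% fell). Without day 0 the slope turned to -0.31 (adjusted p = 0.669). miR-150-5p had 3 or 4 counts at days 0 and 6 and 8 to 10 at days 10, 17 and 24, too few for the test. The number of the 8 with any count was 5, 2, 3, 4 and 7 at days 0, 6, 10, 17 and 24.

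Within calvaria, the 4 red cell miRNAs had 1 order of levels and the white cell miRNAs did not share an order, but only miR-451a and miR-144-3p of the red cell miRNAs varied beyond counting error between calvaria 1 and 3. All 4 red cell miRNAs were lowest in calvaria 1 and highest in calvaria 3, an order shared by 62 of the 371 miRNAs (16.7%) with 10 counts in each calvaria library and by 0 of the 4 white cell miRNAs. miR-144-5p, with 5 counts in calvaria 1, is not among the 371. miR-451a and the arms of miR-144 come from 1 primary transcript, so the 4 red cell miRNAs are not independent observations. miR-451a was 2.00 times as high in calvaria 3 as in calvaria 1 (1.57 to 2.55, exact binomial interval of the counts), and miR-144-3p 1.98 times (1.25 to 3.21). For miR-144-5p that ratio was 2.29 (0.766 to 8.20) and for miR-486-5p 1.25 (0.883 to 1.80), intervals that include 1. The summed red cell miRNAs without miR-486-5p differed by 2.00 times (1.63 to 2.47), and the summed white cell miRNAs by 1.17 times (0.966 to 1.44). With miR-486-5p the red cell sum was 161, 213 and 287 RPM in calvaria 1, 2 and 3. White cell miRNAs varied singly as well. For miR-142-5p the ratio of calvaria 3 to calvaria 1 was 1.76 (1.06 to 2.89), while the intervals of miR-223-3p, miR-142-3p and miR-150-5p included 1. miR-142-3p was 1.73 times (1.25 to 2.39) as high in calvaria 3 as in calvaria 2. The SD of log2 RPM over the 3 libraries was 0.50, 0.51, 0.60 and 0.16 for miR-451a, miR-144-3p, miR-144-5p and miR-486-5p, against a median of 0.26 over the 371 miRNAs. Among white cell miRNAs it was 0.23 for miR-223-3p, 0.39 for miR-142-3p, 0.48 for miR-142-5p and 0.18 for miR-150-5p. With 3 libraries of 1 group these are descriptions, with no test.

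Calvaria 3 stood apart in some other markers as well. miR-126-3p, the endothelial miRNA, was 2.35 times (2.29 to 2.40) as high there as in calvaria 1, and miR-206-3p 2.33 times (1.85 to 2.96), while the other arm, miR-126-5p, was 1.38 times (1.28 to 1.49) as high. Summed cartilage miRNAs, led by miR-140-3p, were 111611 and 110887 RPM in calvaria 1 and 2 and 61235 RPM in calvaria 3. The part of vessel, muscle and cartilage content in the spread of the red cell miRNAs was not tested.

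**Figure D3:**
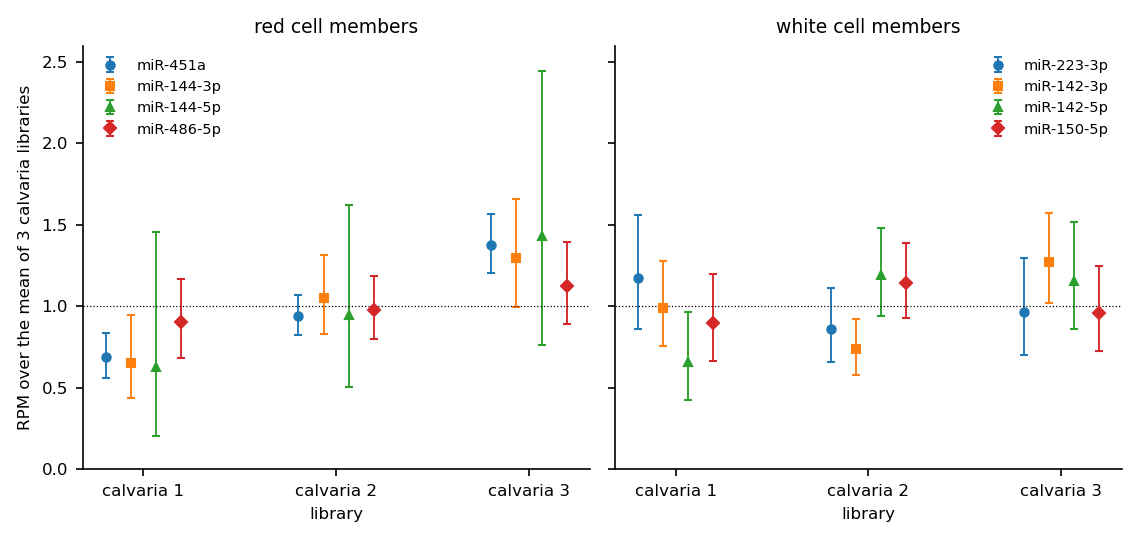
RPM in each calvaria library over that miRNA's mean of the 3, for red cell miRNAs (left) and white cell miRNAs (right), with exact 95% Poisson intervals of the count. All 4 red cell points are lowest in calvaria 1 and highest in calvaria 3, and the white cell points show no common order.

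Ratios between miRNAs from 1 transcript can be read within a library, free of its total. miR-451a exceeded miR-144-3p by 3.61 (2.35 to 5.70), 3.06 (2.36 to 4.02) and 3.63 (2.74 to 4.88) in calvaria libraries 1, 2 and 3, intervals that all overlap, although each level differed between libraries 1 and 3 as given above. In MC3T3, 8 counts against 3 gave 2.67 (0.640 to 15.6). The 3p arm of miR-144 exceeded its 5p arm by 5.60, 5.92 and 4.85, pooled 5.42 (3.68 to 8.23). The 3p arm of miR-223 exceeded its 5p arm by 7.83, 9.83 and 8.80, pooled 8.82 (5.33 to 15.5).

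The arms of miR-142 behaved otherwise. miR-142-3p exceeded miR-142-5p by 2.31 (1.41 to 3.75) in calvaria 1 and by 1.69 (1.18 to 2.43) in calvaria 3, but the ratio was 0.949 (0.683 to 1.32) in calvaria 2. The intervals of calvaria 1 and 2 do not overlap, so this ratio differed between these 2 libraries by more than counting error. miR-150 was 1-sided, with 206 counts of the 5p arm against 3 of the 3p arm over calvaria (ratio 68.7, 23.2 to 336). Across transcripts, miR-451a exceeded miR-486-5p by 1.79, 2.24 and 2.86 in the 3 calvaria libraries, where pooled MC3T3 gave 0.00587 (0.00253 to 0.0116). Against the sum of miR-486-5p and miR-3107-5p, the ratio was 0.894 (0.677 to 1.18), 1.08 (0.893 to 1.30) and 1.38 (1.12 to 1.69), below 1 in calvaria 1, and 0.00282 (0.00122 to 0.00557) over MC3T3.

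**Figure D4:**
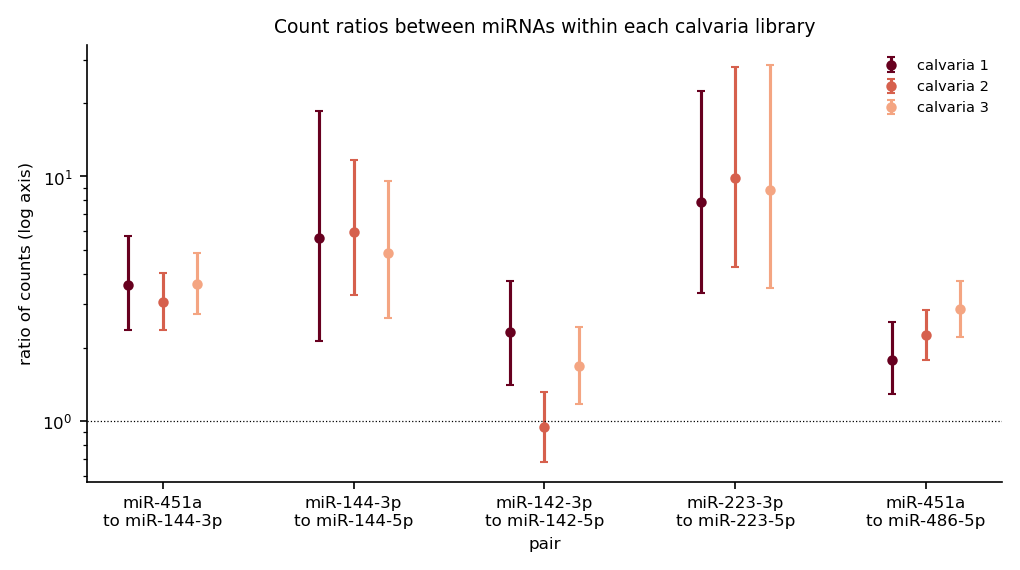
Ratios of counts (log axis) for 5 pairs of miRNAs in each calvaria library, with exact 95% binomial intervals. The ratio of miR-451a to miR-144-3p is between 3.06 and 3.63 in all 3 libraries, while that of miR-142-3p to miR-142-5p is below 1 in calvaria 2 and above 1 in the others.

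The near match of seed between miR-144-3p and miR-101a-3p gives a scale for the red cell miRNA. miR-101a-3p had 4323 ± 573 RPM (SD, n = 3) in calvaria and 4832 ± 2521 RPM (SD, n = 5) in MC3T3, and did not pass (log2 difference -0.32 ± 0.45, SE, adjusted p = 0.545, edgeR). The sign of that difference depended on the days taken, 0.82 against days 0 and 6 and -0.97 against days 17 and 24. Its reads outnumbered those of miR-144-3p by 182, 98.9 and 105 in calvaria libraries 1, 2 and 3, and by 26328 (9009 to 127670) over MC3T3. Of these 2 miRNAs, miR-101a-3p thus gave most of the reads in each material.

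Other miRNAs known from red cells, several of them widely expressed, did not pass as higher in calvaria. Of 8 listed, 5 were tested, none was higher in calvaria and 2 were lower, miR-486-3p and miR-3107-5p, beside a background of 35.5% and 28.7%; the median log2 difference of the 5 was 0.07, against 0.06 over all tested. miR-92a-3p, the most abundant by its mean over all 8 libraries, had 2548 ± 349 RPM (SD, n = 3) in calvaria and 1283 ± 592 RPM (SD, n = 5) in MC3T3 (log2 difference 0.72 ± 0.40, SE, adjusted p = 0.139, edgeR; 1.17 with adjusted p = 0.000931 without day 0). miR-363-3p, from the X-linked relative of the miR-17-92 cluster, had 36 counts over calvaria and 0 in MC3T3, and was not tested. miR-451b, annotated antisense to miR-451a, had 0 counts in all 8 libraries.

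Other miRNAs known from white cells differed in direction and size. Of 12 listed, 9 had an entry, 4 were tested, and 3 were higher in calvaria with none lower, beside 35.5% and 28.7% of all tested; the median log2 difference of the 4 was 1.15, against 0.06 over all tested. The summed level was 353 to 423 RPM in calvaria and 87.5 to 127 RPM in MC3T3. miR-342-3p, the most abundant by its mean over all 8 libraries, had 173 ± 9.49 RPM (SD, n = 3) against 67.7 ± 20.1 RPM (SD, n = 5), a log2 difference of 1.18 ± 0.24 (SE, adjusted p = 0.00124, edgeR). Another of the 3 was its partner arm miR-342-5p (log2 difference 1.13 ± 0.25, SE, adjusted p = 0.00251, edgeR), so these arms are not independent observations. miR-146a-5p, induced by NF-kappaB in white cells and in many others, had 172 ± 38.9 RPM (SD, n = 3) against 17.3 ± 12.4 RPM (SD, n = 5), a log2 difference of 3.15 ± 0.58 (SE, adjusted p = 0.000681). Over the 24 days of MC3T3 culture its fitted log2 change was 3.22 ± 0.59 (SE, adjusted p = 0.0473, edgeR), a call that was lost without day 6 (adjusted p = 0.132), day 17 (0.102) or day 24 (0.0602). miR-155-5p, of activated white cells, did not pass (log2 difference -0.66 ± 1.14, SE, adjusted p = 0.622). Without day 0, where it was highest at 34.7 RPM, it was higher in calvaria by 1.55 (log2, adjusted p = 0.00187). miR-223-5p and miR-511-3p, each of myeloid cells, had 17 and 29 counts over calvaria and 0 in MC3T3, and were not tested. miR-147-3p, also not tested, ran the other way, with 9 counts over calvaria and 99 over MC3T3 (2.02 and 5.39 RPM on average).

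Beside the vessels, which blood cells travel in, the blood miRNAs were a small signal. miR-126-3p had 12317 ± 5920 RPM (SD, n = 3) in calvaria against 9.17 ± 4.75 RPM (SD, n = 5) in MC3T3 (log2 difference 10.21 ± 0.43, SE, adjusted p = 7.8e-09, edgeR), and its counts were 95.3, 83.5 and 112 times those of miR-451a in calvaria libraries 1, 2 and 3. miRNAs of epithelium, led by miR-203-3p, summed to 73.7 to 82.0 RPM in calvaria and 3.22 to 12.4 RPM in MC3T3. miR-203-3p alone averaged 54.9 RPM in calvaria, and miR-205-5p ran the other way (1.44 RPM in calvaria and 2.38 RPM in MC3T3 on average). The white cell miRNAs, at 151 to 177 RPM, and the red cell miRNAs without miR-486-5p, at 113 to 227 RPM, thus lay above the epithelial miRNAs and below those of cartilage, endothelium and mesenchyme in every calvaria library. They also lay below the lists of striated muscle (283 to 642 RPM) and nervous system (599 to 682 RPM) in each. The same held for the other white cell (353 to 423 RPM) and other red cell miRNAs (4945 to 5036 RPM). The nervous system list was led by miR-128-3p (533 to 608 RPM in calvaria) and summed to 326 to 460 RPM in MC3T3. Of that list 2 were tested, miR-128-3p and miR-9-5p, and neither passed, while miR-124-3p had 2.01 counts over calvaria.

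**Figure D5:**
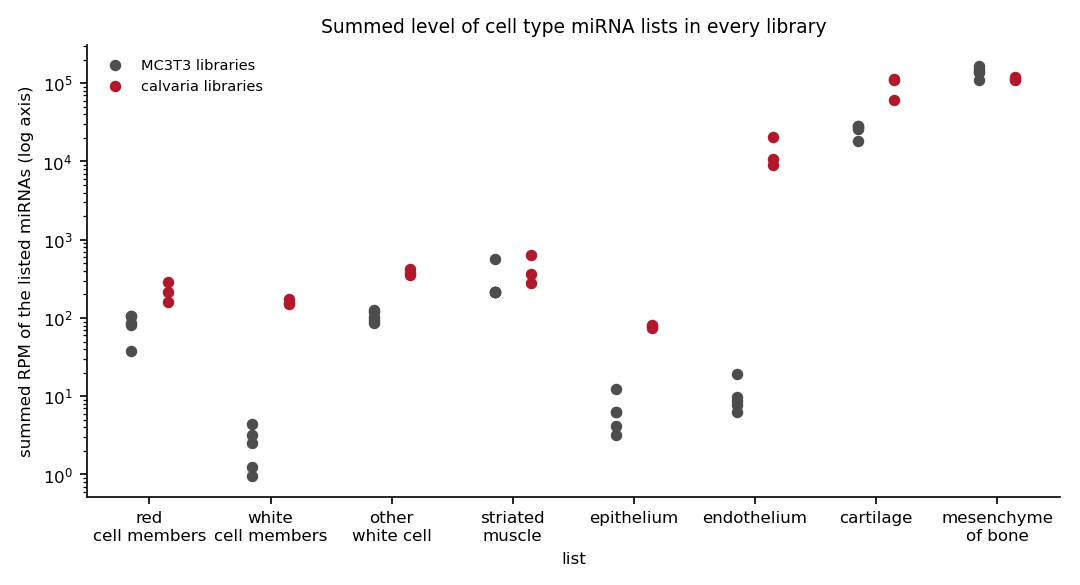
Summed RPM (log axis) of the red and white cell miRNAs and of lists for other cell types, with 1 point for each MC3T3 (grey) and calvaria (red) library. White cell miRNAs are at 0.951 to 4.38 RPM in MC3T3 and 151 to 177 RPM in calvaria, and endothelial miRNAs at 9028 to 20323 RPM in calvaria.

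The miRNAs most like miR-451a and miR-142-3p in pattern were sought outside the 8 themselves. Over all 8 libraries, Pearson's r of log2(RPM + 1) with miR-451a was highest for miR-676-5p (0.996), miR-380-5p and miR-340-3p (0.995 each), then miR-666-5p and miR-10b-5p (0.994 each), of 464 candidates. With miR-142-3p it was highest for miR-666-5p, miR-340-3p and miR-676-5p (0.998 each), then miR-653-5p and miR-598-3p (0.997 each). These values describe mainly the gap between 2 materials that each set of libraries shares. Over the 3 calvaria libraries alone, among 193 miRNAs with 100 counts in each, the smallest distances of centred log2(RPM + 1) from miR-451a were those of miR-10a-5p (0.0329), miR-148a-3p (0.0474), miR-5117-3p (0.0815), miR-10b-5p (0.0902) and miR-345-3p (0.1499). From miR-142-3p they were those of miR-497-5p (0.0504), miR-21a-5p (0.0713), miR-324-5p (0.0837), miR-1981-5p (0.174) and miR-23b-3p (0.188). Over only 3 libraries, small distances among 193 miRNAs can arise without a shared pattern. The distances also leave out counting error, so they are descriptions only. miR-10a-5p, nearest to miR-451a in calvaria at 88.3, 121 and 172 RPM, had 6075 RPM on average in MC3T3, while miR-10b-5p, on each list of miR-451a, had 8.94 RPM there against 2145 RPM in calvaria.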

How the data were processed

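Small RNA libraries (NEBNext kit) were made from 5 MC3T3 and 3 calvaria RNA samples, per the labels' protocols. The values of the deposited raw table are estimated counts, 1 row for each mature arm of each precursor. The deposited normalized table gives RPM, and each RPM matched the raw value scaled to its library total within 0.0127 RPM. cutadapt 0.9.5, Bowtie 0.12.7 and mm10 are named in the submitters' processing notes, without roles. The sources used here give neither the quantifier nor the miRBase release. Of 64 values of the 8 miRNAs, 6 had fractional counts. Days follow the sample titles; the table's MC3T3 columns carry days 3 lower throughout. The sources used here do not explain the mark "veh" on the later columns.

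Counts were summed per mature miRNA over the 1418 entries (1281 mature miRNAs) and rounded. Calvaria was compared with MC3T3 by edgeR 4.0.16 (R 4.3.3), quasi-likelihood test, TMM factors, 10 counts in at least 3 of 8 libraries, Benjamini-Hochberg over all miRNAs tested, threshold 0.05. No day has a replicate, so the MC3T3 spread includes change over days. The day trend was linear over 5 libraries (10 counts in at least 2; 3 residual degrees of freedom), given as slope times 24 days. Scripts were tested on simulated data. Intervals are exact 95% Poisson (RPM) or Clopper-Pearson (ratios) and cover counting error only; a 0 was given a limit of 3 counts. Mature sequences and hairpins come from RefSeq GRCm38.p6, and overlapping genes from GENCODE. Alternatives used DESeq2 1.42.0 and limma 3.58.1 (log2(RPM + 1) and log2(RPM + 10)), other scalings and minimums, subsets of days and each library left out. The rule for named miRNAs was all 8 with every value, then the most abundant of each list of cell type miRNAs and those a result turns on, and the 5 most alike to miR-451a and to miR-142-3p. The 8 miRNAs and all lists were chosen with earlier results of these data known.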

Additional observations from a re-analysis of the deposited data

Results flagged for a closer look

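In the MC3T3 libraries, 8 values stood apart from the other 4 of the same miRNA by more than Dixon's 95% critical value (0.710 for 5 samples), which chance passes in about 5% of groups of normally distributed values. How many miRNAs were screened is not given here, so the 8 cannot be set against that rate. miR-223-3p had 0.365 RPM (1 count) at day 24 and 0 at the other days. miR-142-5p had 0.729 RPM (2 counts) at day 24 and 0 at the other days. Both are below the limit of 3 counts used for a 0. Any lone count beside values of 0 has a Dixon ratio of 1, so these 2 pass by construction and the rate does not apply to them. miR-126-3p, of endothelium, had 17.4 RPM at day 6 and 5.47 to 8.37 RPM at the others. miR-206-3p, of skeletal muscle, had 556.3 RPM at day 0 and 104 to 144 RPM at the others. miR-203-3p, of epithelium, had 6.93 RPM at day 24 and 0.644 to 1.02 RPM at the others. miR-486-3p, the opposite arm of miR-486-5p, had 12.8 RPM at day 6 and 2.16 to 4.01 RPM at the others. miR-133a-3p, of muscle, was low at day 0, with 0.992 RPM against 4.48 to 5.47 RPM. miR-155-5p, of activated white cells, had 34.7 RPM at day 0 and 1.46 to 3.22 RPM at the others.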

How the results depend on the processing

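No paired analysis was possible because no label links a calvaria library to an MC3T3 day. Of 521 alternative values, 454 kept their direction and side of the threshold, stayed within the spread or, for counts of calls, stayed near the main count. Some of the 454 could not change. Ratios from the most abundant entry are the same values, as each of the 8 miRNAs has 1 entry. Levels with the 8 left out of the library total could hardly move, as they are a minor part of it. The call of miR-486-5p was lost with DESeq2's size factors, with library totals (adjusted p = 0.134), with limma at pseudocounts of 1 and 10 (0.207 and 0.179), against days 0 and 6 only (0.199) and in 4 of the fits that left out 1 library. Its day trend turned to -0.31 without day 0. Sign changes of differences that had not passed were those of miR-155-5p (0.69 and 0.16 with limma at pseudocounts of 1 and 10, 1.71 against days 17 and 24, and -1.03 to 1.55 with 1 library left out, the latter without day 0) and miR-101a-3p (0.11 with limma at each pseudocount, 0.82 against days 0 and 6). Scaling by DESeq2's size factors, upper quartiles or library totals moved the median of all miRNAs from 0.06 to 0.23, -0.37 and 0.25. Calls in calvaria, 167 higher and 135 lower, were 81 and 75 with a minimum of 100 counts, which tests 258 miRNAs, and 157 to 179 and 100 to 145 with 1 library left out. Day trend calls, 4 rising and 5 falling, were 7 and 10 with no minimum and 39 and 49 on log2(day + 1). They were 0 and 0 with library totals in edgeR (38 and 25 at an unadjusted p under 0.05) and with limma (47 and 24). With 1 day left out, edgeR gave 0 to 27 rising and 0 to 30 falling: 27 and 30 without day 0, and 0 and 0 without day 6, 17 or 24 (28 to 38 and 24 to 43 at an unadjusted p under 0.05). Depth limits the MC3T3 levels of 7 of the 8 miRNAs, which rest on 0 to 10 counts a library.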
